A study of Danio rerio with 24 samples.

Results

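Whole zebrafish embryos raised in cannabidiol (CBD) were compared with embryos raised in tetrahydrocannabinol (THC) at 10 hours post-fertilisation (hpf), over all genes. The 8 libraries compared, 4 with CBD and 4 with THC, were taken by their labels from 24 in the series. The others are 4 libraries with the solvent DMSO at 10 hpf and 12 of larvae at 96 hpf, 4 for each of CBD, THC and DMSO. All animals, controls included, carried the transgene Tg(fli1:egfp), in which the endothelial gene fli1 drives green fluorescent protein, and were exposed through development until sampling. The series concerns the developmental toxicity of both compounds. No dose or starting hour is given in the sources used, and whether the doses matched is unknown. The series calls its 4 libraries per group biological replicates without naming clutches or pools, so a p-value here reflects only how far these libraries spread, which may be technical. In bulk RNA of whole embryos, fewer cells of a type and less RNA per cell cannot be told apart.

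At 10 hpf the zebrafish embryo is at the end of gastrulation. The maternal and early zygotic programme led by factors such as nanog is fading, the notochord, paraxial mesoderm and neural plate have been laid down, and the first somites, hindbrain segments and neurons appear within the following hours. An enveloping layer of keratin-rich cells covers the embryo, and the yolk syncytial layer beneath it passes yolk lipid to the blastoderm with apolipoproteins. A library taken slightly later in this window therefore differs in many genes from one taken slightly earlier. THC and CBD are isomers from the Cannabis plant: in THC the pyran ring is closed, and in CBD it is open and leaves a further free phenol. THC activates the G protein-coupled cannabinoid receptors, which CBD binds only weakly.

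The 8 libraries held 15307666 to 22674319 counts of reads per gene, and the floor of detection, taken as 3 counts, lay between 0.124 and 0.312 CPM, the count scaled by library size, in them. Library sizes were scaled by the trimmed mean of M values (TMM). DMSO library 4 held 125926 counts and its values are not set beside single genes. CBD library 3 stood apart from the other 7 on the first principal component, at −174.9 against −11.6 to 71.0, and that component carried 54.0% of the variance. It held 20212 genes with a count, against 22795 to 23942 in the other CBD libraries and 22972 to 23614 in THC libraries, all drawn to an equal depth of 15307666 counts. Cytosolic ribosomal protein transcripts took 18.4% of its counts, against 5.44% to 8.05% in the other CBD libraries and 4.47% to 6.90% in THC libraries.

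Developmental position differed more within each group than between the compounds. The level of nanog, a pluripotency factor of the blastula, was 10.0, 11.1, 119 and 72.1 CPM in CBD libraries 1 to 4, and 70.06, 118, 203 and 10.17 CPM in THC libraries 1 to 4. CBD libraries 1 and 2 and THC library 4 were thus low, the remaining 5 were high, and the groups overlapped. In DMSO libraries 1 to 3 nanog stood at 9.50, 124 and 92.0 CPM. Log2 nanog CPM averaged 4.97 ± 1.84 with CBD and 6.01 ± 1.88 with THC (SD, n = 4 each), a difference of −1.04 (two-sided exact permutation test, p = 0.514, Benjamini-Hochberg adjusted p = 0.686 over 5 library measures).

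Genes that come on after gastrulation ran against nanog in part. The hindbrain segment factor EGR2 had 36.1, 0.492, 0 and 0 CPM in CBD libraries 1 to 4, and 0.0482, 0, 0.0562 and 2.98 CPM in THC libraries 1 to 4. The neuronal RNA-binding gene ELAVL3 had 74.8, 4.59, 0.312 and 0.545 CPM with CBD, and 1.11, 0.997, 1.12 and 11.04 CPM with THC. PAX2 (ENSDARG00000028148), which marks the midbrain-hindbrain boundary and the pronephros, had 47.9, 55.8, 2.80 and 3.82 CPM with CBD, and 9.25, 2.94, 3.26 and 74.1 CPM with THC. In each of these genes CBD library 1 and THC library 4 were high for their group, and CBD library 2 joined them for PAX2. A position score was taken as the mean log2(CPM + 1) of 13 late gene identifiers minus that of 8 early ones, nanog among them. It was 0.447, −1.09, −3.21 and −3.29 in the CBD libraries and −2.79, −3.26, −3.21 and −0.737 in the THC libraries. It averaged −1.79 ± 1.80 with CBD and −2.50 ± 1.19 with THC (SD, n = 4 each), a difference of 0.71 (two-sided exact permutation test, p = 0.686), and without CBD library 1 the difference was −0.03. The smallest p that 4 against 4 libraries allow is 0.0286.

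**Figure D1:**
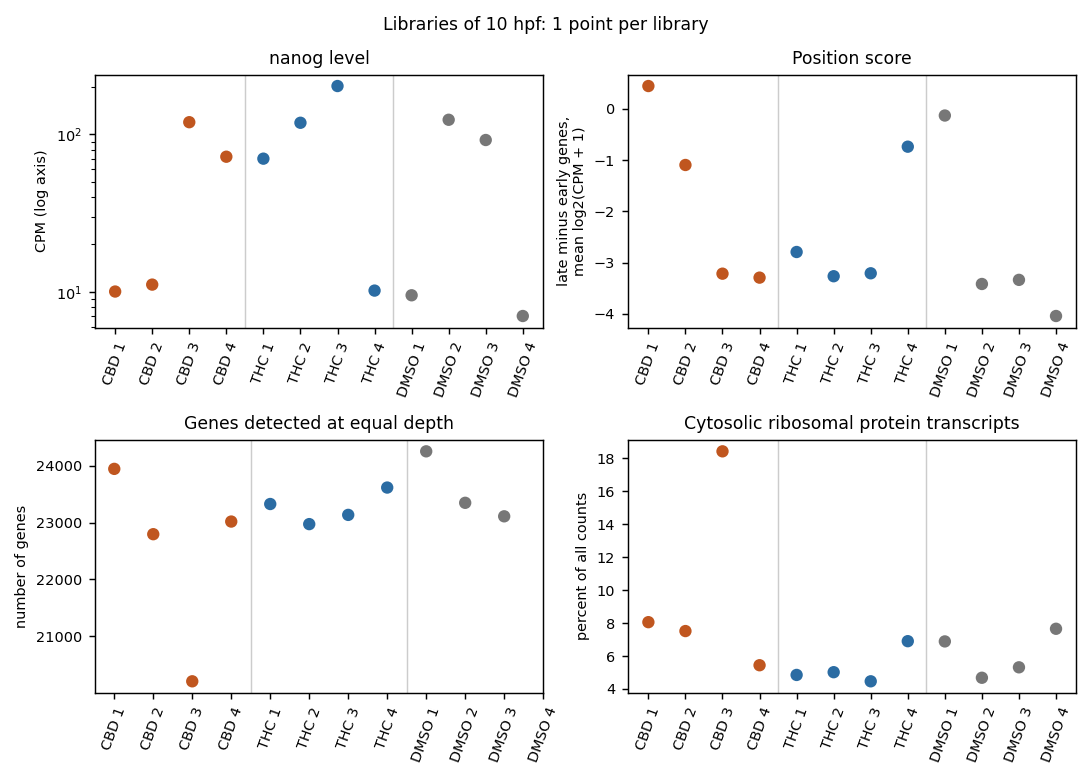
Each point is 1 library of 10 hpf (x axis), CBD, THC and DMSO from left to right. The panels give nanog CPM on a log axis, the position score, the number of genes detected at an equal depth (DMSO 4 too shallow, not shown) and the percent of counts in cytosolic ribosomal protein genes. CBD 1, CBD 2, THC 4 and DMSO 1 have low nanog and high scores, and CBD 3 is lowest in detected genes and highest, at 18.4%, in ribosomal protein transcripts; the nanog point of DMSO 4 is 1 count.

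The markers of some cell layers set the same libraries apart. The summed level of 7 enveloping layer and epidermis markers ranged from 14201 to 23864 CPM with CBD and from 10607 to 14550 CPM with THC. The 9 yolk syncytial layer identifiers summed to 3708 to 12350 CPM with CBD and to 2330 to 3821 CPM with THC, and CBD library 3 gave the highest sum of both lists. There, 8001 CPM of the yolk sum came from 1 afp4 identifier (ENSDARG00000095863). The afp4 identifiers, apoa1b and TTR were highest in CBD library 3, but apoa2, apoa4b.1, FABP2 and RBP4 in CBD library 1 and mxtx2 in CBD library 4. The enveloping layer markers were all highest in CBD library 3 except krt5, which was lowest there at 2244 CPM. Hatching gland markers summed to 34.8 to 327 CPM with CBD, the highest in library 1, and to 30.1 to 100.4 CPM with THC, the highest in library 4. Germ cell markers summed to 25.8 to 62.9 CPM and 28.4 to 67.9 CPM, and maternal oocyte markers to 8.14 to 157 CPM and 11.4 to 70.6 CPM, with CBD and THC. Notochord markers summed to 188 to 568 CPM and 232 to 318 CPM, paraxial mesoderm markers to 514 to 713 CPM and 556 to 669 CPM, and neural plate markers to 533 to 1091 CPM and 663 to 889 CPM, so the labelled embryonic tissues were present in both groups. Larval muscle markers, which belong to older animals, summed to 6.34 to 72.2 CPM with CBD and 5.35 to 125 CPM with THC, against a median of 57523 CPM at 96 hpf. The 125 CPM was in THC library 3, the highest in nanog, and THC library 4 had 83.9 CPM. The 3 blood identifiers summed to 4.36 to 11.97 CPM with CBD and 2.86 to 5.58 CPM with THC, with 1 of them at 0 in all 8 libraries. The part of these layers and of library quality in the gene differences below was not tested beyond the fits with and without libraries that are given there.

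Between CBD and THC at 10 hpf, no gene passed the test. Of 16960 genes tested by quasi-likelihood in edgeR, 0 (0%) had an adjusted p under 0.05, and the smallest adjusted p was 0.690. At an unadjusted p under 0.05 there were 963 genes, 520 higher (3.07%) and 443 lower (2.61%) with CBD. The median log2 fold change over all genes was 0.02, and the common biological coefficient of variation was 48.7%. A p that misses the threshold does not show that the compounds act alike: the intervals given below are wide for most genes.

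Genes in which every CBD library lay on the same side of every THC library numbered 227 higher (1.34%) and 552 lower (3.25%) with CBD. CBD library 3 held the most extreme of the 8 values in 195 of the 227 and in 481 of the 552. The 12 of smallest p in each direction, among genes that have a symbol and reach a mean of 1 CPM with CBD or THC, are described next. They were picked for this separation, so it is given as a description. Every one of these 24 genes had an adjusted p of 0.690 in edgeR. Leaving out any 1 library turned none of them round, which their separation fixed in advance.

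The 12 lower genes had log2 fold changes between −0.96 and −2.65. STK38, a kinase of the Hippo-related NDR family, had 25.5, 21.4, 24.5 and 26.4 CPM with CBD, and 47.0, 53.9, 52.96 and 37.4 CPM with THC. The CBD libraries were nearly level whatever their nanog, and the lowest THC value belonged to library 4. The averages were 24.5 ± 2.16 CPM in CBD embryos and 47.8 ± 7.59 CPM in THC embryos (SD, n = 4 each), a log2 fold change of −0.97 (SE 0.197, 95% interval −1.41 to −0.52, unadjusted p = 0.000757 and adjusted p = 0.690 in edgeR). DMSO libraries 1 to 3 had 34.1, 53.5 and 54.0 CPM, all above the CBD libraries.

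ABAT, the transaminase that breaks down the neurotransmitter GABA, varied somewhat more among the CBD libraries. It had 19.9, 19.8, 16.5 and 23.8 CPM with CBD, and 32.0, 44.4, 44.4 and 34.8 CPM with THC, a log2 fold change of −0.96 (SE 0.215, 95% interval −1.44 to −0.47). DMSO libraries 1 to 3 had 19.98, 36.0 and 36.4 CPM, so ABAT was the 1 of the 12 in which a DMSO library fell within the CBD range. SNX13, a sorting nexin of endosomes, had 3.92, 3.61, 2.70 and 2.73 CPM with CBD, and 10.5, 11.97, 15.7 and 5.46 CPM with THC, a log2 fold change of −1.74 (SE 0.372). The groups came nearest between CBD library 1 and THC library 4.

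The RNA-binding genes of the group were nova1, ZNF106 and TNRC6A. The splicing regulator nova1 (ENSDARG00000020178) had 15.5, 12.5, 3.43 and 11.7 CPM with CBD, and 43.4, 46.1, 40.8 and 26.3 CPM with THC, a log2 fold change of −1.85 (SE 0.423). TNRC6A, a scaffold of microRNA silencing, had 263, 207, 171 and 263 CPM with CBD, and 447, 530, 497 and 318 CPM with THC, a log2 fold change of −0.99 (SE 0.235). ZNF106, a zinc finger protein, averaged 54.7 ± 16.7 CPM in CBD embryos and 117 ± 20.5 CPM in THC embryos (SD, n = 4 each). In all 3 genes CBD library 3 was the lowest of the 8 and THC library 4 the lowest of its group.

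Transcription factors were represented by zeb1a and RXRB. zeb1a, a zinc finger repressor of epithelial genes, had 30.2, 22.2, 9.03 and 34.2 CPM with CBD, and 92.3, 93.0, 74.5 and 44.5 CPM with THC, a log2 fold change of −1.67 (SE 0.410). RXRB, a retinoid X receptor that pairs with retinoic acid and other nuclear receptors, had 64.9, 55.2, 26.8 and 51.1 CPM with CBD, and 113, 106, 108 and 86.3 CPM with THC, a log2 fold change of −1.06 (SE 0.271). For both genes the DMSO libraries, at 48.3 to 85.1 CPM for zeb1a and 81.9 to 105 CPM for RXRB, stood above every CBD library.

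The remaining members were signalling and trafficking genes. TBC1D9, of a family that acts on Rab GTPases, had the largest fold change of the 12, with 7.84, 1.75, 0.935 and 2.13 CPM with CBD, and 20.8, 23.7, 27.2 and 9.30 CPM with THC, a log2 fold change of −2.65 (SE 0.653). Its CBD library 1 and THC library 4 were nearest to each other. The tyrosine phosphatase PTPN21 averaged 7.02 ± 1.43 CPM in CBD embryos and 15.9 ± 4.24 CPM in THC embryos, the vesicle transport adaptor FHIP2A 10.4 ± 3.19 and 21.5 ± 1.19 CPM, and the protein phosphatase 2A regulator ppp2r2aa 22.9 ± 8.75 and 51.7 ± 7.86 CPM (SD, n = 4 each). In 11 of the 12 lower genes DMSO libraries 1 to 3 all lay above every CBD library. These genes were picked as low in every CBD library, and the same share over all genes was not taken.

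**Figure D2:**
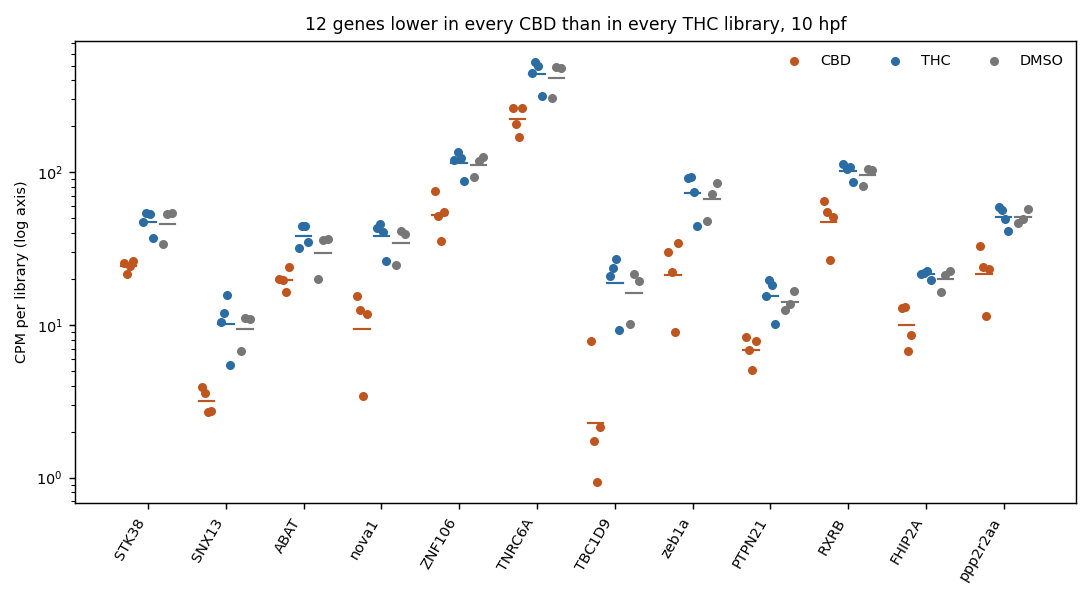
Each point is the CPM of 1 library on a log axis for the 12 lower genes, with CBD, THC and DMSO (libraries 1 to 3) from left to right; the short line is the geometric mean. The 4 CBD libraries lie below all THC libraries by the way the genes were picked; the DMSO libraries lie beside the THC libraries, and only for ABAT does 1 of them reach the CBD range.

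The 12 higher genes had log2 fold changes between 0.88 and 2.25. SLC25A20, the carrier that takes acylcarnitines into mitochondria, had 97.1, 93.3, 189 and 88.5 CPM with CBD, and 60.9, 59.5, 51.9 and 81.3 CPM with THC. CBD library 3 stood far above the rest of its group, and the fold change was 0.88 (log2, SE 0.288), or 0.55 without that library. SELENOM, a selenoprotein of the endoplasmic reticulum, had 25.4, 10.9, 57.8 and 12.99 CPM with CBD, and 8.09, 8.43, 9.60 and 10.0 CPM with THC, a log2 fold change of 1.56 (SE 0.502), or 0.86 without CBD library 3.

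taco1, which activates translation of a mitochondrial cytochrome oxidase subunit, led by p, with 3.44, 3.06, 5.81 and 2.68 CPM with CBD, and 1.73, 1.45, 0.955 and 1.08 CPM with THC. Its log2 fold change was 1.51 (SE 0.399), and 1.23 without CBD library 3. The glutathione transferase gsta.2 had 10.25, 3.34, 4.26 and 2.78 CPM with CBD, and 1.98, 1.30, 1.12 and 2.52 CPM with THC, a log2 fold change of 1.57 (SE 0.510). Here CBD library 1 was highest, and the value without it was 0.99. KDELR3, a receptor that returns proteins to the endoplasmic reticulum, averaged 1.26 ± 0.685 CPM in CBD embryos and 0.369 ± 0.164 CPM in THC embryos (SD, n = 4 each). In THC library 1 it had 0.145 CPM, which is the floor of that library.

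The other 7 included si:ch211-137i24.12, tmem220, fkbp16, cdc42l2, si:ch73-167f10.1 and hbl1, with log2 fold changes between 1.38 and 2.25. Without CBD library 3, that of fkbp16 was 0.93, against 1.88 with it, and that of si:ch73-167f10.1 was 1.39, against 2.25. Counts were low for some of these genes. In THC libraries 1 to 4 cdc42l2 had 10, 6, 4 and 14 counts, and si:ch211-137i24.12 had 8, 14, 5 and 25. CBD library 3 was the highest of the 8 in 11 of the 12 higher genes. DMSO libraries 1 to 3 lay wholly below the CBD libraries in 2 of the 12, against the 11 of 12 lower genes in which they lay wholly above. The CBD libraries are shared by both readings, so these counts only place DMSO beside the pair. Both sets were picked by their CBD values, and neither count has a share over all genes beside it.

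The number of genes called differed between methods, and which part of the methods made the difference was not tested. The Wald test of DESeq2 on the same 8 libraries called 7 of 16519 genes with an adjusted p, all lower with CBD (0.0424%), and 4 have a symbol. These were SNX13 (adjusted p = 0.0242), STK38 (adjusted p = 0.0245), ABAT (adjusted p = 0.0264) and nova1 (adjusted p = 0.0438, all DESeq2). limma voom, weighting each library by its quality, called 343 genes, 336 lower (1.98%) and 7 higher. Its weights were 0.324, 2.54, 0.0982 and 1.05 for CBD libraries 1 to 4 and 1.98, 3.87, 2.61 and 0.589 for THC libraries 1 to 4, lowest in CBD library 3. All 7 genes called by DESeq2 were among the 343.

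With the nanog level of each library in the fit, the compound again gave 0 of 16959 genes (0%) past the threshold in edgeR, with a smallest adjusted p of 0.470 and 1579 genes at an unadjusted p under 0.05. The nanog level itself, in the same fit and for the same 8 libraries, gave 757 genes (4.46%), 374 that followed nanog and 383 that ran against it. With the position score in its place the compound gave 0 genes in edgeR (1823 at an unadjusted p under 0.05) and the score 1386 of 16943 (8.18%). Both are measured in the same libraries as the genes they are set against. All 24 genes described above kept their direction and an unadjusted p under 0.05 beside nanog, each with an adjusted p of 0.470. They were picked by p and separation in these same 8 libraries, so this is no separate support. For STK38 the log2 fold change was −0.87 (SE 0.184) beside nanog and −0.97 without it, and for SNX13 −1.55 (SE 0.401) and −1.74.

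The fit with nanog brought forward a few more genes by the same conditions. TLL1, a tolloid-family protease gene, had 28.9, 11.1, 2.49 and 8.38 CPM with CBD, and 52.5, 31.9, 29.3 and 42.7 CPM with THC. Its log2 fold change was −2.36 (SE 0.566) beside nanog and −1.61 (SE 0.601) without it. hecw2b, a ubiquitin ligase gene, averaged 2.88 ± 1.44 CPM in CBD embryos and 7.82 ± 1.58 CPM in THC embryos, and ppp1r14aa, an inhibitor of protein phosphatase 1, 1.65 ± 0.556 and 0.689 ± 0.195 CPM (SD, n = 4 each). Beside nanog their log2 fold changes were −1.80 (SE 0.387) and 1.36 (SE 0.389), with an adjusted p of 0.470 for each in edgeR.

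Gene lists chosen for gastrula tissues and for known responses to cannabinoids were described by their medians, beside 0.02 over all genes, of which 8727 of 16960 had a positive fold change. No member of any of the 28 lists passed the test in the fit of 8 libraries. The median was positive in 25 lists and negative in 3, but negative in 11 without CBD library 1, in 8 without CBD library 3 and in 13 beside nanog. Yolk syncytial layer, gut and liver transport genes had the highest median of the 28 lists, 0.98, with 27 of 33 tested members higher. Of the 33, 10 were higher at an unadjusted p under 0.05 in edgeR, against 3.07% over all genes. afp4 (ENSDARG00000041490), a secreted apolipoprotein-like gene, had 837, 473, 1314 and 394 CPM with CBD, and 327, 303, 272 and 502 CPM with THC. Its log2 fold change was 1.1 (SE 0.396), and 0.30 without CBD libraries 1 and 3. The list's median was 0.67 beside nanog, 0.55 without CBD library 1 and 0.10 without CBD libraries 1 and 3, and the ribosomal protein share and the yolk marker sum were highest in CBD library 3.

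Covering-layer genes and hatching gland genes were also mostly higher. Epidermis and enveloping layer keratins had a median of 0.28, with 23 of 32 members higher, which was 0.37 beside nanog and 0.15 without CBD library 3. The keratin cyt1 had 362, 218, 1081 and 197 CPM with CBD, and 143, 156, 143 and 249 CPM with THC, with a log2 fold change of 1.43 (SE 0.535) that was 0.59 without CBD library 3. Hatching gland genes had a median of 0.48, with 13 of 15 higher. The hatching enzyme he1.1 had 152, 10.7, 3.22 and 1.69 CPM with CBD, and 2.65, 0.848, 1.24 and 16.8 CPM with THC. It was high in the libraries with low nanog, and its log2 fold change was 2.96 (SE 1.49), −0.05 without CBD library 1 and 1.22 beside nanog.

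Lists of later body axis genes changed most with the libraries in the fit. All 25 tested Hox genes, which set position along the body axis, had a positive fold change, with a median of 0.72 that was −0.02 without CBD library 1 and −0.21 beside nanog. It was 1.06 without CBD library 3, 0.30 without CBD libraries 1 and 3, and 1.75 without THC library 4. HOXA3 had 35.5, 3.72, 0.208 and 0.644 CPM with CBD, and 1.35, 0.449, 0.674 and 6.91 CPM with THC, highest in CBD library 1 and then THC library 4. Of the 25 Hox genes, 19 were called for the nanog level, against 757 of 16959 (4.46%) over all genes. For the compound in the same fit 0 were called, as over all genes. Early neuron genes had a median of 0.48, or −0.06 beside nanog, and sarcomere genes 0.41, or −1.03 without CBD library 1. The larval muscle markers summed to 125 and 83.9 CPM in THC libraries 3 and 4, and their part in the sarcomere median was not tested. The slow myosin smyhc1 had 149 CPM in CBD library 1 and 0.219 to 0.942 CPM in the other CBD libraries, against 0.249 to 1.78 CPM with THC.

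Somite and early muscle factors had a median of 0.36, or 0.00 beside nanog. Their member MEOX1 had 122, 44.6, 19 and 10.1 CPM with CBD, and 9.20, 7.58, 9.32 and 45.2 CPM with THC. The endothelial factor etsrp had 24.5, 2.95, 0.831 and 0.297 CPM with CBD, and 0.771, 0.548, 0.168 and 2.07 CPM with THC. Both were highest in CBD library 1, and THC library 4 was the highest of its group. The list of endothelial and blood genes had a median of 0.19, or −0.04 without CBD libraries 1 and 3. Neural plate and eye field factors had 0.07, or −0.16 beside nanog, and notochord, floor plate and prechordal plate genes 0.17, or −0.21 without CBD library 1.

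Most gastrula and signalling lists lay close to the median of all genes, and retinoic acid genes lay further from it. Mesoderm and endoderm factors had a median of 0.04, and the notochord factor tbxta averaged 162 ± 70.6 CPM in CBD embryos and 214 ± 45.1 CPM in THC embryos (SD, n = 4 each; 95% interval of the log2 fold change −1.11 to 0.31). Ligands and antagonists of Wnt, Fgf, Bmp and Nodal had a median of 0.09 and Hedgehog genes 0.02, and beside nanog both were negative, at −0.12 and −0.26. Retinoic acid genes had 0.37, which was −0.18 beside nanog, 0.00 without CBD library 1 and 0.79 without THC library 4. Early pluripotency and blastula factors had −0.14, or 0.13 without CBD libraries 1 and 3, and ionocyte genes 0.03, or −0.22 beside nanog.

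Germ plasm and germ cell genes were lower in 13 of 17 members, with a median of −0.14. It was −0.05 beside nanog, −0.33 without CBD library 3, −0.40 without CBD libraries 1 and 3, and −0.43 without THC library 4. TDRD6, a Tudor protein of germ granules, had 2.24, 3.23, 8.72 and 6.39 CPM with CBD, and 17.6, 16.1, 28.4 and 3.06 CPM with THC. Its level followed nanog in both groups (adjusted p = 0.0178 for the nanog term in edgeR), and its log2 fold change for the compound was −0.88 (SE 0.310) beside nanog and −1.67 (SE 0.651) without it. Maternal oocyte transcripts had a median of 0.30 that was −0.36 without CBD library 3 and 0.71 beside nanog. The egg envelope gene zp2.1 had 28.3 CPM in that library, and 1.12 to 2.08 CPM in the other CBD libraries and 1.12 to 2.14 CPM in THC libraries.

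**Figure D3:**
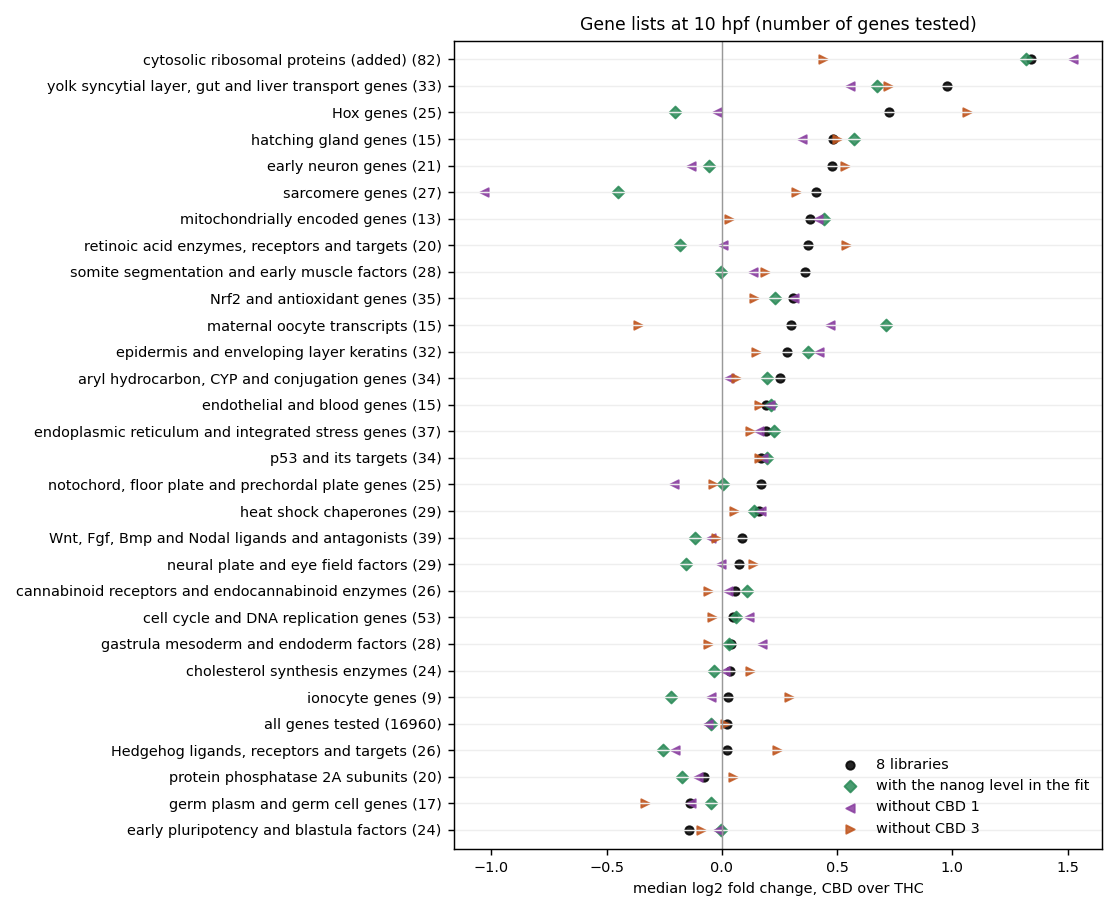
Each row is a gene list, with the number of genes tested, and the x axis is the median log2 fold change of CBD over THC. Circles are the fit of 8 libraries, diamonds the fit with the nanog level, and triangles the fits without CBD library 1 or CBD library 3. The Hox median moves from 0.72 to −0.21 with nanog in the fit, the ribosomal protein median, added after the data were seen, from 1.34 to 0.44 without CBD library 3, and the sarcomere median from 0.41 to −1.03 without CBD library 1.

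The cannabinoid receptor genes were at or near the floor. The receptor gene CNR1 had 5, 3, 0 and 0 counts with CBD, and 0, 1, 0 and 6 counts with THC, and CNR2 had 0 in all 4 libraries with CBD, and 1, 0, 0 and 0 counts with THC. At these depths a difference in either receptor was not detectable. Of the 26 tested members of the endocannabinoid list 13 were higher and 13 lower, with a median of 0.06. DAGLA, which makes the endocannabinoid 2-arachidonoylglycerol, had 0.775, 0.602, 1.04 and 1.39 CPM with CBD, and 3.52, 3.64, 3.43 and 1.12 CPM with THC. THC library 4 alone lay within the CBD range, and the log2 fold change was −1.62 (SE 0.489, unadjusted p = 0.00871 and adjusted p = 0.690 in edgeR). The fatty acid binding protein FABP3, of a family that carries cannabinoids in cells, averaged 36.5 ± 27.3 CPM in CBD embryos and 14.6 ± 5.20 CPM in THC embryos (SD, n = 4 each), and its log2 fold change of 1.32 was −0.04 without CBD libraries 1 and 3.

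Most genes of xenobiotic and oxidative defence had positive fold changes. Aryl hydrocarbon, CYP and conjugation genes had 21 of 34 members higher and a median of 0.25, which was 0.03 without CBD library 1, 0.06 without CBD library 3 and 0.00 without both. gsta.1 had 32.5, 15.4, 32.2 and 11.6 CPM with CBD, and 11.4, 4.84, 6.91 and 13.6 CPM with THC, a log2 fold change of 1.32 (SE 0.449). Nrf2 and antioxidant genes had 27 of 35 higher and a median of 0.31, or 0.14 without CBD library 3. The peroxiredoxin prdx5 averaged 70.8 ± 15.101 CPM in CBD embryos and 42.8 ± 13.4 CPM in THC embryos, and the lipid peroxidase gpx4a 194 ± 140 and 75.7 ± 33.3 CPM (SD, n = 4 each), the highest in CBD library 3 for both. CYP1A1, the classical target of the aryl hydrocarbon receptor, had 36, 8, 0 and 4 counts with CBD, and 4, 4, 5 and 3 counts with THC, and was too low to test.

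Stress lists had small positive medians. p53 and its targets had 27 of 34 higher and a median of 0.17. Their members rps27l and PHLDA3 stood at 313 and 17.5 CPM in CBD library 3, while the other CBD libraries had 27.6 to 36.1 and 6.18 to 7.19 CPM, and THC libraries 13.9 to 33.6 and 2.70 to 6.28 CPM. Endoplasmic reticulum and integrated stress genes had 27 of 37 higher and a median of 0.19. Of the 37, 6 were higher at an unadjusted p under 0.05 in edgeR, against 3.07% over all genes. Among the 6 were the misfolded protein genes EDEM2 (18.6 ± 8.29 CPM in CBD embryos and 10.17 ± 1.33 CPM in THC embryos) and SYVN1 (59.2 ± 15.9 and 38.9 ± 2.76 CPM, SD, n = 4 each). That list's median was −0.05 in the voom fit. Heat shock chaperones had 0.16, and their mitochondrial member HSPE1 had 247 CPM in CBD library 3 against 80.0 to 94.2 CPM in the other CBD libraries and 56.3 to 90.2 CPM with THC.

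Mitochondrially encoded genes had a median of 0.38, or 0.03 without CBD library 3, in which MT-CO2 stood at 9015 CPM, against 1441 to 1743 CPM in the other CBD libraries and 1413 to 1679 CPM with THC. Cell cycle genes had a median of 0.05, protein phosphatase 2A subunits −0.08 and cholesterol synthesis enzymes 0.04. The proliferation marker mki67 averaged 932 ± 132 CPM in CBD embryos and 1281 ± 234 CPM in THC embryos (SD, n = 4 each; log2 fold change −0.46, 95% interval −0.95 to 0.03). The 82 cytosolic ribosomal protein genes, a list added after the shares of counts were seen, had 81 members higher and a median of 1.34, which was 0.44 without CBD library 3.

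Without CBD libraries 1 and 3, genes lower with CBD came past the threshold. CBD libraries 2 and 4 against the 4 THC libraries gave 64 of 17813 genes, all lower (0.359%), and leaving out THC library 4 as well gave 310 of 17341, 308 lower (1.78%) and 2 higher. All 64 were among the 310. With only 1 of CBD libraries 1 and 3 left out, 0 genes were called. The 64 genes were chosen after their values were seen in CBD libraries 2 and 4, so only libraries 1 and 3 bear on them separately. By the medians that follow, library 1 lay beside the THC libraries and library 3 far below them. The median of the 64 genes relative to the THC mean, on a log2 scale with 0.1 CPM added, was −0.14 in CBD library 1, −1.56 in library 2, −3.53 in library 3 and −1.73 in library 4, with −0.17 to 0.12 in the THC libraries and −0.01 to 0.06 in DMSO libraries 1 to 3. CBD library 1 was the highest CBD library in 64 of the 64 and lay within or above the THC range in 42, while CBD library 3 was the lowest of the 8 in 60. These shares were not taken over all genes. Among the 552 genes lower without overlap, CBD library 3 was the lowest in 481, so its place is not particular to the 64. CBD library 1 was the highest CBD library in 276 of the 552.

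Some of the 64 genes act in growth and patterning. ULK1, the kinase that starts autophagy, had 27.9, 12.1, 1.25 and 10.3 CPM with CBD, and 54.1, 47.9, 45.7 and 42.1 CPM with THC. Its log2 fold change was −2.08 (SE 0.166, adjusted p = 0.0294 in edgeR) without CBD libraries 1 and 3, and −1.87 (SE 0.661, adjusted p = 0.690) with all 8. NR6A1, the germ cell nuclear factor, had 61.5, 8.37, 2.08 and 3.92 CPM with CBD, and 128, 135, 91.3 and 81.0 CPM with THC. ACVR1B, an activin and Nodal receptor, had 26.2, 3.5, 0.623 and 5.40 CPM with CBD, and 38.3, 34.1, 29.8 and 24.4 CPM with THC.

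In further receptor genes CBD library 1 was again the highest and CBD library 3 the lowest of the CBD libraries. IGF1R, a growth factor receptor, had 31.5, 8.20, 2.70 and 7.29 CPM with CBD, and 27.9, 29.3, 29.7 and 21.6 CPM with THC, so CBD library 1 lay above every THC library. ERBB2 had 17.8, 4.76, 0.935 and 5.20 CPM with CBD, and 23.2, 21.4, 18.1 and 17.1 CPM with THC. The Wnt receptor FZD4 had 14.99, 3.77, 0 and 3.42 CPM with CBD, and 10.99, 9.77, 10.16 and 11.6 CPM with THC. With nanog in a fit of all 8 libraries, the log2 fold changes of IGF1R and ERBB2 were −1.79 (SE 0.736) and −2.14 (SE 0.757), each with an adjusted p of 0.470. These named members were chosen after their values were seen.

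Of the 64 genes, 22 had no overlap between the 4 CBD and 4 THC libraries, against 3.25% lower without overlap over all 16960 genes. The voom fit also called 61 of them, against 1.98% called lower over all genes, and 0 were in any of the 28 lists. The 64 were picked as low in CBD libraries 2 and 4. The voom fit gave CBD libraries 1 and 3 its lowest weights, 0.324 and 0.0982, so neither count is separate support. None of the 7 genes called by DESeq2 was among the 64. The medians of CBD libraries 1, 2, 4 and 3 fell in that order, with nanog levels of 10.0, 11.1, 72.1 and 119 CPM. Libraries 1 and 2 lay close in nanog and apart in median. Among the THC libraries, library 4, low in nanog at 10.17 CPM, had the lowest median, −0.17, against 0.12, 0.07 and −0.002 in libraries 1 to 3. DMSO library 1, also low in nanog, had 0.06, against −0.01 and 0.04 in DMSO libraries 2 and 3. Of the CBD libraries, the highest and the lowest of this group were also those with most and fewest genes detected at equal depth, with 23942 in library 1, 22795 in library 2, 20212 in library 3 and 23017 in library 4. In the fit of all 8 libraries with nanog, the nanog term had an adjusted p of 0.386 for ULK1, 0.296 for NR6A1 and 0.435 for ACVR1B in edgeR. With 8 libraries, a missed threshold does not show that nanog had no part. Whether developmental position, RNA quality or library preparation had a part was not tested.

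**Figure D4:**
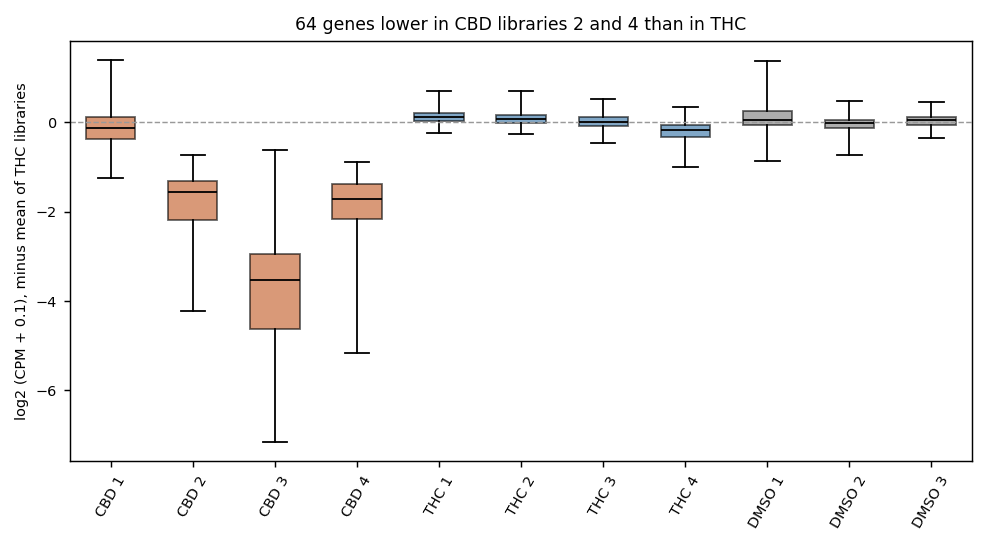
Boxes give the quartiles and median, and whiskers the full range, of 64 genes in each library, as log2(CPM + 0.1) minus the mean of the THC libraries. CBD libraries 2 and 4 are low by the way the genes were chosen, at medians of −1.56 and −1.73; CBD library 3 lies lowest at −3.53 and CBD library 1 lies beside the THC and DMSO libraries at −0.14.

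In larvae of 96 hpf most fold changes did not keep the sign they had at 10 hpf, where no gene had passed the test. Of 21028 genes, 3 (0.0143%) passed the test in edgeR: zgc:111983 was higher with CBD (log2 fold change 1.2, adjusted p = 0.0332), and si:zfos-411a11.2 (−1.03, adjusted p = 0.0197) and CYP1A1 (−1.49, adjusted p = 0.0419) were lower. CYP1A1 had 6.80, 13.7, 8.51 and 10.7 CPM with CBD and 28.4, 24.6, 25.3 and 31.9 CPM with THC at that stage. The 96 hpf count was 0 without CBD library 1 or 3 or THC library 1 or 4, and 1 without CBD library 4. Among 15584 genes tested at both stages, the fold changes had the same sign in 44.4%, with Pearson's r of −0.0784 and Spearman's rho of −0.131 across genes, which are not independent replicates. The stages share no library. Of 873 genes at an unadjusted p under 0.05 at 10 hpf, 275 had the same sign at 96 hpf.

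Tested directly, the difference between the stages gave 0 of 22308 genes (0%) past the threshold in edgeR, with a smallest adjusted p of 0.544 and 2015 genes at an unadjusted p under 0.05. All 12 lower genes were tested at 96 hpf, where 7 kept the sign. STK38 had a log2 fold change of −0.97 (SE 0.197) at 10 hpf and −0.09 (SE 0.287) at 96 hpf, and SNX13 −1.74 (SE 0.372) and 0.03 (SE 0.267). Of the 12 higher genes 10 were tested, and 3 kept the sign. For gsta.2 the values were 1.57 (SE 0.510) at 10 hpf and −0.57 (SE 0.130) at 96 hpf, and for afp4 (ENSDARG00000041490) they were 1.1 (SE 0.396) and −1.51 (SE 0.413), each with an adjusted p of 0.544 for the stage difference.

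**Figure D5:**
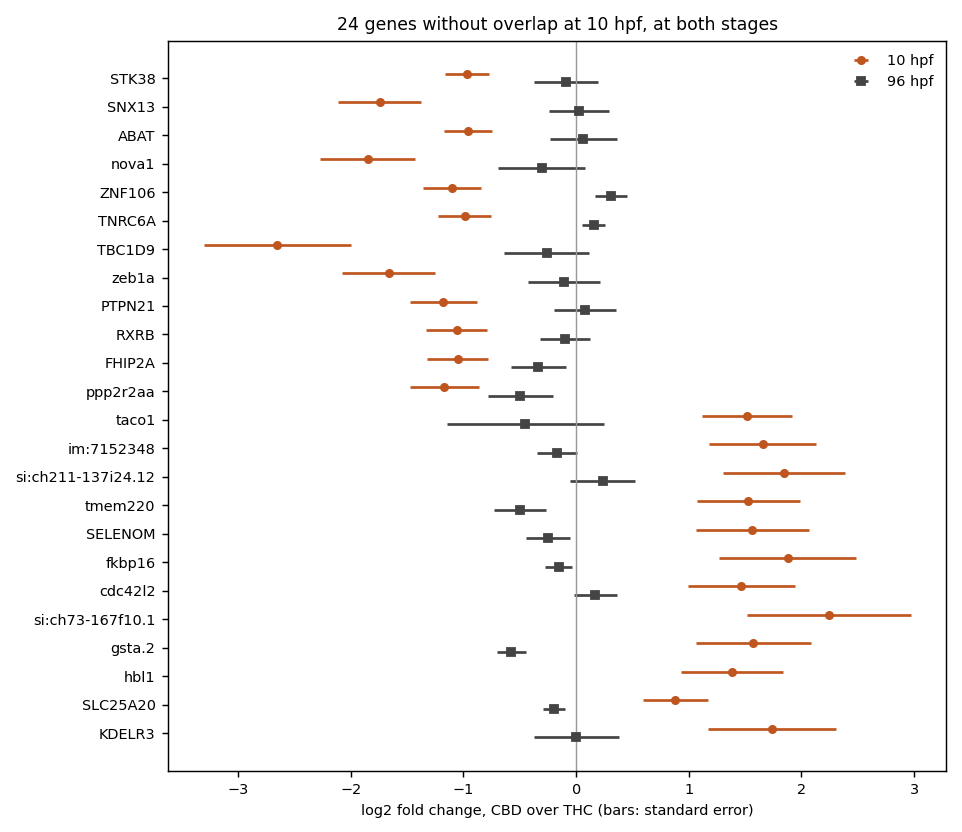
Points are log2 fold changes of CBD over THC (x axis) for the 12 lower and 12 higher genes, with bars of 1 standard error, circles for 10 hpf and squares for 96 hpf. At 10 hpf the points lie between −2.65 and 2.25 by the way the genes were picked; at 96 hpf they lie nearer to 0, with gsta.2 at −0.57 opposite in sign to 10 hpf, and 2 genes were not tested there.

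The reporter's own gene, FLI1, did not pass the filter on low counts, with 10 counts or more in 3 of the 8 libraries. It had 734, 13, 4 and 1 counts with CBD, and 0, 1, 8 and 57 counts with THC. The highest counts were in CBD library 1 and THC library 4, as for etsrp, and the groups overlapped.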

How the data were processed

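As deposited, each library has its own table of unnormalized read counts for 35117 Ensembl identifiers, with 0 rows lacking a gene. Per the submitters' processing notes, STAR, HTSeq and edgeR were used with genome build GRCz11, versions not given in the sources used here. Strand handling is not stated, so paralogs and overlapping genes are less certain. RNA was extracted on columns with DNase digestion and sequenced from TruSeq libraries as paired reads, per the labels' protocols. Symbols came from a table covering 27000 identifiers, 4682 of which share theirs, many in the human style.

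The 8 libraries of CBD and THC at 10 hpf were fitted without DMSO libraries, with TMM factors from all 12 libraries of the stage and filterByExpr (minimum count 10, total 15), by quasi-likelihood F tests (edgeR 4.0.16, R 4.3.3), Benjamini-Hochberg adjusted over all genes tested, threshold 0.05. SE was derived from the fold change and F, and 95% intervals from SE and degrees of freedom. Alternatives used DESeq2 1.42.0 and limma 3.58.1. The floor of 3 counts covers counting error only. The members and the lists (28 lists, 874 identifiers) were chosen with earlier results of these data known. The 5 higher and 5 lower genes of smallest p in the fit with nanog, the 12 of each direction in the fit of 8, up to 3 members per list by p, and CNR1, CNR2, CYP1A1, FLI1 and nanog were the genes to be named; not all are printed. EGR2, ELAVL3 and PAX2 are members of the position score, named after their values were seen. Over the 12 pairs of replicates of the stage's CBD and THC groups, none were identical, and chi-square per degree of freedom was at least 7.18. The fit was tested on simulated counts with 200 changed genes, most of which it did not call.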

Additional observations from a re-analysis of the deposited data

Results flagged for a closer look

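Within a group of 4 libraries, 1 library stood far from the others, by Dixon's test at 95%, in 18 of 120 gene and library measures looked at. For independent, normally distributed values chance gives about 1 in 20. These measures share libraries and many genes were picked by p, so that rate is no measure of excess here. All of them were in CBD library 1 (5), CBD library 3 (7) or THC library 4 (6). In CBD library 1 these were he1.1 at 152.1 CPM, with the nearest other CBD library at 10.7, HOXA3 at 35.5 (nearest 3.72), smyhc1 at 149.4 (nearest 0.942), TNNI2, a troponin of fast muscle, at 34.6 (nearest 3.01) and etsrp at 24.5 (nearest 2.95).

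In CBD library 3 they were SLC25A20 at 188.6 CPM (nearest 97.1), rps27l at 313.5 (nearest 36.1), PHLDA3 at 17.5 (nearest 7.19), zp2.1 at 28.3 (nearest 2.08), EDEM2 at 30.9 (nearest 15.5), MT-CO2 at 9015 (nearest 1743) and HSPE1 at 246.6 (nearest 94.2). In THC library 4 they were DAGLA at 1.12 CPM (nearest other THC library 3.43), cyt1 at 248.6 (nearest 156), he1.1 at 16.8 (nearest 2.65), HOXA3 at 6.91 (nearest 1.35), EDEM2 at 12.2 (nearest 9.60) and MEOX1 at 45.2 (nearest 9.32).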

How the results depend on the processing

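The count of genes called between CBD and THC at 10 hpf was 0 in the 8-library fit and stayed 0 with DESeq2 size factors, without a filter, with 1 CPM required in 4 libraries, all 12 libraries, either position covariate, the replicate block and each library left out in turn (0 to 0). It was 7 with the DESeq2 Wald test, 343 with voom weights, 64 without CBD libraries 1 and 3, and 310 without these and THC library 4, the last chosen after seeing the data. At 96 hpf the 3 calls became 8 with the replicate block, and 0 to 3 with a library left out. The stage difference gave 0 genes in every setting run (0 to 0). Same-numbered CBD and THC libraries at 10 hpf deviated together with r of −0.05, −0.36, 0.27 and −0.55. CBD library 2 and THC library 4, both low in nanog, reached 0.48. The check therefore cannot show whether same-numbered samples share a clutch or batch. The replicate block gave 0 calls at 10 hpf, as did the fit without it.

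With a library left out, the nanog difference lay between −1.93 and −0.49 and the position score difference between −0.033 (without CBD library 1) and 1.30. Of 1018 values for 54 genes, 972 kept direction and side of the threshold, 33 came past it and 13 turned round; the cause was not tested. HOXA3 turned to −0.037 beside nanog, −0.26 beside the score and −0.12 without CBD libraries 1 and 3, and lay between −0.59 and 3.60 with a library left out. FABP3 turned to −0.10 with voom, −0.044 without CBD libraries 1 and 3 and −0.21 without these and THC library 4. smyhc1 turned to −0.73 and −0.23 in the last 2 fits, and MT-CO2 to −0.033 and tbxta to 0.015 without CBD libraries 1 and 3. With a library left out he1.1 lay between −0.047 and 4.73 and smyhc1 between −0.93 and 5.76. The lists moved in 32 of 532 values. Depth limits CNR1 and CNR2, with 0 to 6 counts a library.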
